A study of Mus musculus with 4 samples.

Results

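The hormone genes of the enteroendocrine cells of the gut were examined in the small intestine (SI) of irradiated mice with and without p53. The set holds 10 genes of the 56748 in the deposited count table, taken by their names: the granins Chga and Chgb, and the hormone genes Sct, Cck, Gip, Sst, Nts, Gcg, Pyy and Insl5. Each name matched 1 row. RNA was taken from SI tissue of p53+/+ mice (labelled WT, 2 libraries, numbered 7 and 8) and p53-/- mice (2 libraries, numbered 9 and 10). All mice had received 12 Gy total-body irradiation (TBI) from a Cs-137 source and were examined 1 day later, at 8 to 12 weeks of age by the study's methods. The p53-/- mice lack p53 in every cell type, immune cells included, and no unirradiated group was analysed here, so each value compares 2 irradiated genotypes.

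Enteroendocrine cells are single, scattered secretory cells of the intestinal epithelium. They arise from crypt progenitors that switch on the transcription factor Neurog3, store peptide hormones in dense-core granules built around granins, and release them when receptors on the cell sense nutrients or microbial products. The hormones differ along the gut: Gip and Cck cells are typical of the upper SI, and Gcg, Pyy, Nts and Insl5 cells of the lower SI, and for Gcg, Pyy and Insl5 of the colon too. In whole tissue, fewer cells of a type and less RNA per cell cannot be told apart.

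The promoters of the genes that the results turn on are shown first, as the 250 bases before the start of transcription in RefSeq (build GRCm38.p6, 5′ to 3′ on the strand of the gene). All 10 genes matched a RefSeq promoter, Insl5 and Pyy with 2 starts each, which gives 12 promoters. Gcg and Insl5 are shown because they were the members whose levels separated the genotypes, and Sst and Chgb because they hold the palindromic cyclic AMP response element. Capitals mark TATAAA (the TATA box), CAGNTG (a core bound by basic helix-loop-helix factors such as Neurod1) and TGACGTCA (the cyclic AMP response element), on either strand, and no 2 of these matches overlap in the sequences shown.
Gcg, chr2:62483654-62483903, minus strand: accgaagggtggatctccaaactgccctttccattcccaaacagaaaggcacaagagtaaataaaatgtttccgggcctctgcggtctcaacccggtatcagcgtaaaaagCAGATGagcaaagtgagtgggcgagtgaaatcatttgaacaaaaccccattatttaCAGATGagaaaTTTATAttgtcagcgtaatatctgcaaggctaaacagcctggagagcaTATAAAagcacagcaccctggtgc
Insl5, first start, chr4:103027272-103027521, minus strand: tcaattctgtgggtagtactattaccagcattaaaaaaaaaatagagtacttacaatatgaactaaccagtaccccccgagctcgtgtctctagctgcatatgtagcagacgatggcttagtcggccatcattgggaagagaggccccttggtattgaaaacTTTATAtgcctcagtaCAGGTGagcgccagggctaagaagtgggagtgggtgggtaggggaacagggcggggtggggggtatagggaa
Insl5, second start, chr4:103026729-103026978, minus strand: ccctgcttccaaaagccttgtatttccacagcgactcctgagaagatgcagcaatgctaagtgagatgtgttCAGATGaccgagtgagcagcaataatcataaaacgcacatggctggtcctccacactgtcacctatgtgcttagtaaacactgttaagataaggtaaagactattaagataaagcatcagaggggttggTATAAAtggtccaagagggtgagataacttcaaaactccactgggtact
Sst, chr16:23890845-23891094, minus strand: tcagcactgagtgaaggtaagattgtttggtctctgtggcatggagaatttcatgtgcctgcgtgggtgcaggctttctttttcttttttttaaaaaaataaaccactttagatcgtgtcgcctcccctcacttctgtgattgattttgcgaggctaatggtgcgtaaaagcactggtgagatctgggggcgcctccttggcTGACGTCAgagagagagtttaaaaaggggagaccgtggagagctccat
Chgb, chr2:132781392-132781641, plus strand: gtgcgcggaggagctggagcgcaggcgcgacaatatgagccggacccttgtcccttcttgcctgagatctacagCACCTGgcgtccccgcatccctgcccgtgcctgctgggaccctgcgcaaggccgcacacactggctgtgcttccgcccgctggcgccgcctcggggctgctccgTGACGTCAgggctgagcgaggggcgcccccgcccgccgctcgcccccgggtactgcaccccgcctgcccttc

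TATAAA was present in 4 of the 12 promoters, those of Gcg, Insl5 (both starts) and Sct, against 12.4% of all 32851 RefSeq promoters in windows of the same length. In Gcg the match nearest the start began 24 bases before it and in Sct 28 bases before it. CAGNTG was present in 9 of the 12 promoters, in 8 genes, against 44.8% of all promoters, and TGACGTCA in 2 (Chgb, 72 bases before the start, and Sst, 48 bases) against 1.55%. A half-site of the p53 consensus, searched on both strands, was found in 1 gene, Pyy, in the stretch its 2 promoters share, against 7.13% of all promoters. These matches describe letters in the window and were not tested for binding.

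The deposited table holds unscaled read counts, which added up to between 15005479 and 22173164 per library. The hormone genes held between 0.0364% and 0.0509% of the counts of a library. Levels are given as CPM, counts relative to the library total after TMM scaling, a factor that sets the bulk of the genes level between libraries. Trp53 itself was at 57.7 and 47.1 CPM in p53+/+ mice against 19.8 and 22.5 CPM in p53-/- mice (edgeR quasi-likelihood test, adjusted p = 0.0602). Its counts cover the whole gene, so they check the labels only where the deleted part is read. Libraries stood apart in 3 ways: the B cell and follicle markers summed to 569 CPM in library 10 and to between 9.72 and 36.7 CPM in the others, the ribosomal RNA gene Rn18s-rs5 took 4.59% of the counts of library 10 and at most 0.863% elsewhere, and the markers of enteric neurons and glia summed to 169 CPM in library 8 and to between 44.5 and 51.1 CPM in the others.

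None of the 10 hormone genes passed an adjusted p of 0.05 in edgeR's quasi-likelihood test, fitted and adjusted over 16094 genes. Of all genes tested, 0.298% passed the threshold higher and 0.193% lower in p53-/- mice. At an unadjusted p under 0.05, 2 members were lower (Gcg and Insl5) and 0 higher, beside 7.92% of all genes lower and 10% higher. In the same 2 genes, both p53-/- libraries lay below both p53+/+ libraries. That is 2 of 10 members lower without overlap and 0 higher, where 24.4% and 26.4% of all genes tested did so, and neither share of the members exceeds that background. With DESeq2, which calls 4.95% of the genes higher and 4.02% lower, 1 member passed, Gcg (lower, adjusted p = 0.00297). The median log2 fold change of the 10 members was -0.19, p53-/- over p53+/+, beside -0.0084 over all genes tested, and it was -0.19 too with Insl5 set to the bound that 3 counts give.

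The granins, which report on the dense-core granule common to the enteroendocrine subtypes, overlapped between the genotypes. Chga, the granin used most widely as an enteroendocrine marker, was at 66.7 and 42.3 CPM in p53+/+ mice against 48.3 and 51.0 CPM in p53-/- mice. Chgb, its partner in granule formation, was at 83.4 and 52.4 CPM against 71.0 and 66.0 CPM. For both genes the p53-/- libraries fell between the p53+/+ libraries, so the genotypes overlapped. The log2 fold change was -0.13 for Chga (95% confidence interval -0.75 to 0.48) and 0.0124 for Chgb (-0.61 to 0.64), and both intervals leave room for a change in either direction.

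Sct, which encodes secretin, the S cell hormone that calls forth pancreatic bicarbonate, was at 61.6 and 40.4 CPM in p53+/+ mice against 48.0 and 52.0 CPM in p53-/- mice. Like the granins, its p53-/- values lay inside the p53+/+ range, and the log2 fold change was -0.0286 (95% confidence interval -0.61 to 0.56). Cck, the I cell hormone that contracts the gallbladder, was at 7.05 and 6.75 CPM in p53+/+ mice against 5.92 and 10.4 CPM in p53-/- mice. The higher value came from library 10 and the lower from library 9, so the p53+/+ values lay between them. Gip, the incretin of K cells, had 45 and 3 counts in p53+/+ mice against 27 and 43 counts in p53-/- mice. Library 8 was the one with almost no Gip, and the p53+/+ level of 1.49 ± 1.83 CPM (SD, n = 2) had a spread wider than its mean, against 1.66 ± 0.676 CPM (SD, n = 2) in p53-/- mice. The interval of its log2 fold change ran from -2.59 to 2.89, so these libraries do not settle a direction. Its log2 fold change was 3.05 without library 7 and -0.75 without library 8.

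Gata4, a transcription factor of the duodenum and jejunum, was counted beside Gip because it marks the upper SI. It had 38 and 7 counts in p53+/+ mice against 73 and 83 counts in p53-/- mice, and was thus, like Gip, lowest in library 8. The 4 upper SI markers that were tested lay higher in both p53-/- libraries than in either p53+/+ library, as did 26.4% of all genes tested. Of these, Onecut2 had enough counts for the filter only in the p53-/- libraries (7 and 2 counts against 19 and 40). Of the 2 list genes not tested, Onecut3 lay lower without overlap (3 and 8 counts against 3 and 0) and Pdx1 overlapped. The median log2 fold change of the 4 was 1.54, and the full list of 6 summed to 37.3 and 25.1 CPM against 101 and 87.7 CPM. Slc40a1, the iron exporter ferroportin, made up most of that sum (32.4 and 21.2 CPM against 92.0 and 73.8 CPM, adjusted p = 0.0744), and none of the 4 passed the threshold. Their part in the Gip and Cck values was not tested.

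Sst, the D cell hormone that restrains the release of other gut hormones, was at 34 and 23.7 CPM in p53+/+ mice against 20.1 and 26.6 CPM in p53-/- mice. Library 7 was the high one, and the remaining values overlapped (log2 fold change -0.31, 95% confidence interval -0.97 to 0.36). Nts, which encodes neurotensin, a peptide released after fat intake, was the member with the most counts summed over the 4 libraries, although Gcg had more in library 8. It was at 137 and 76.0 CPM in p53+/+ mice against 74.0 and 78.7 CPM in p53-/- mice, so that library 7 alone stood above the other 3. The log2 fold change of -0.48 had a 95% confidence interval of -1.22 to 0.27, and without library 7 it was 0.016.

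Gcg (ENSMUSG00000000394) encodes proglucagon, which L cells cut into GLP-1, an incretin, and GLP-2, a growth factor for the intestinal mucosa. It was at 102 and 81.4 CPM in p53+/+ mice against 49.9 and 52.4 CPM in p53-/- mice. Both p53-/- libraries lay below both p53+/+ libraries, and the gap between the genotypes was wider than the spread within either. The means were 91.7 ± 14.7 CPM (SD, n = 2) and 51.2 ± 1.8 CPM (SD, n = 2), a level 1.79-fold higher in p53+/+ mice. The log2 fold change was -0.84 with a standard error of 0.177 (95% confidence interval -1.29 to -0.40). Its unadjusted p of 0.00399 became 0.112 after adjustment over all genes tested in edgeR's quasi-likelihood test, so the call did not pass. It passed with DESeq2, with edgeR's likelihood ratio test (adjusted p = 0.0112), without a filter on low counts (0.00312) and without library 8 (log2 fold change -1.0, adjusted p = 0.0323), and it stayed negative in all 14 alternatives, between -1.0 and -0.34. The smallest of these, -0.34 (adjusted p = 0.366), came from scaling the libraries to epithelial markers, which themselves lay lower in the p53-/- libraries. Without library 10, the one with the B cell and ribosomal RNA counts, the log2 fold change of Gcg was -0.82.

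Pyy encodes peptide YY, which L cells release together with the proglucagon peptides and which slows gut transit. It was at 52.0 and 35.7 CPM in p53+/+ mice against 34.7 and 39.1 CPM in p53-/- mice. The p53+/+ library 8 lay between the p53-/- libraries, so Pyy, unlike Gcg, overlapped between genotypes. Its log2 fold change was -0.25 (95% confidence interval -0.81 to 0.32), an interval that overlaps that of Gcg, and the difference between the 2 genes was not tested.

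Insl5 (ENSMUSG00000066090), an insulin-like peptide of L cells of the lower gut, was the least expressed member per unit length. It had 35 and 13 counts in p53+/+ mice against 3 and 2 counts in p53-/- mice, or 2.17 and 0.843 CPM against 0.131 and 0.0995 CPM. The genotypes did not overlap, and both p53-/- libraries were at or under 3 counts. The summed counts of 48 and 5, set against the TMM-scaled library totals, gave a level 13.1-fold higher in p53+/+ mice, with an exact 95% interval of 5.22 to 42.0 that covers counting error only. The unadjusted p was 0.00579 and the adjusted p 0.127. It passed with the likelihood ratio test (adjusted p = 0.00331) and without a filter (0.00517), and did not with DESeq2 (0.0631). The fit gave a log2 fold change of -3.62 (a value set in part by the prior count of the fit), which was -2.79 without library 7 (adjusted p = 0.336), -4.15 without library 8, -3.83 without library 9 and -3.39 without library 10.

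**Figure D1:**
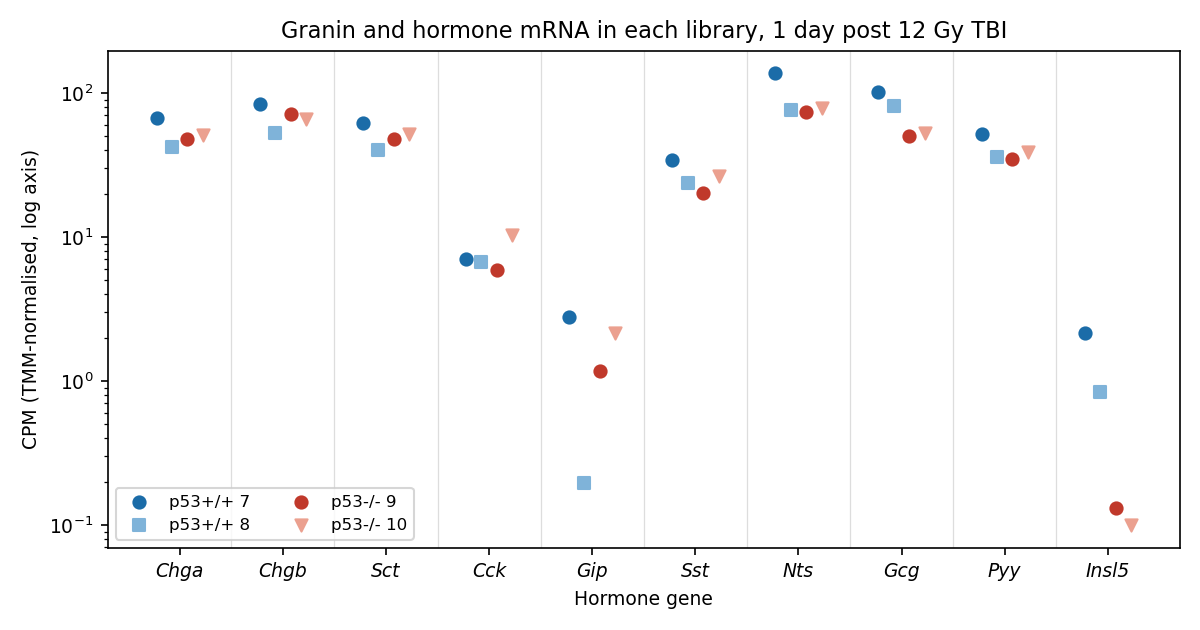
Levels of the 10 genes in each of the 4 libraries, as TMM-scaled CPM on a log axis, with 1 point per library (blue for p53+/+, red for p53-/-). The genotypes separate for Gcg and Insl5, and Gip shows the p53+/+ library 8 far below the other 3.

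Markers of the lower SI also lay lower in the p53-/- libraries. Fgf15, the ileal hormone that represses bile acid synthesis, was at 55.5 and 19.7 CPM in p53+/+ mice against 4.56 and 6.62 CPM in p53-/- mice (log2 fold change -2.75, adjusted p = 0.106). The 5 lower SI markers were Fgf15, the ileal bile acid binding protein Fabp6 and the bile acid carriers Slc10a2, Slc51a and Slc51b. Of these, 4 lay lower in both p53-/- libraries, as did 24.4% of all genes tested, and 0 passed the threshold. Fabp6 was the one that overlapped, at 5483.5 and 1836.0 CPM against 1638.6 and 2072.2 CPM. The list summed to 8374.9 and 4363.3 CPM in p53+/+ mice against 3140.6 and 3596.9 CPM in p53-/- mice. The colon markers Car1, Aqp8, Hoxb13 and Hoxd13 had at most 13 counts in any library. The part of these regional markers in the Gcg and Insl5 values was not tested.

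The order of the hormone genes was compared per length, as CPM per kb of annotated exon. The mean level over the 4 libraries fell from Sct (78.3 CPM per kb) through Nts (73.2), Pyy (64.0), Gcg (47.8), Sst (36.2), Chgb (24.9), Chga (18.9), Cck (5.78) and Gip (2.29) to Insl5 (1.12). Neighbours at the top were close: Nts led Sct in library 7, at 110 against 95.5 CPM per kb, and Sct led Nts in the others, at 62.7 against 60.9 in library 8. Pyy was in the third place in all 4 libraries. Gcg stood above Sst in libraries 7, 8 and 9 and below it in library 10, at 35.1 against 36.8 CPM per kb. Gip and Insl5 changed places in library 8, where Gip was last.

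The share of each gene in the summed per-length level of the 10 describes the make-up of the hormone pool, which does not depend on how the libraries were scaled. Gcg took 14.5% and 17.6% of the pool in p53+/+ mice against 11.1% and 10.6% in p53-/- mice, a mean difference of -5.24 percentage points. Sct took 20.3% in both p53+/+ libraries, against 24.8% and 24.3% in p53-/- mice, a mean difference of 4.26 points. These were the members whose share differed most. Chgb was at 6.48% and 6.19% against 8.64% and 7.27%, Chga was at 5.15% and 4.97% against 5.85% and 5.59%, and Pyy was at 17.5% and 18.3% against 18.3% and 18.7%, a separation smaller than the rounding of these values. Insl5 was at 0.637% and 0.378% against 0.0606% and 0.0415%. Nts took 23.3% and 19.7% against 19.8% and 19.0% and overlapped, as did Sst, Cck and Gip. In 6 genes the shares did not overlap between genotypes, 4 higher and 2 lower in p53-/- mice. With 2 libraries against 2, an exact two-sided permutation test cannot go below p = 0.333, which these 6 genes had (0.556 after Benjamini-Hochberg adjustment over the 10), and shares of 1 pool move against each other, so that a lower Gcg share raises the rest.

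**Figure D2:**
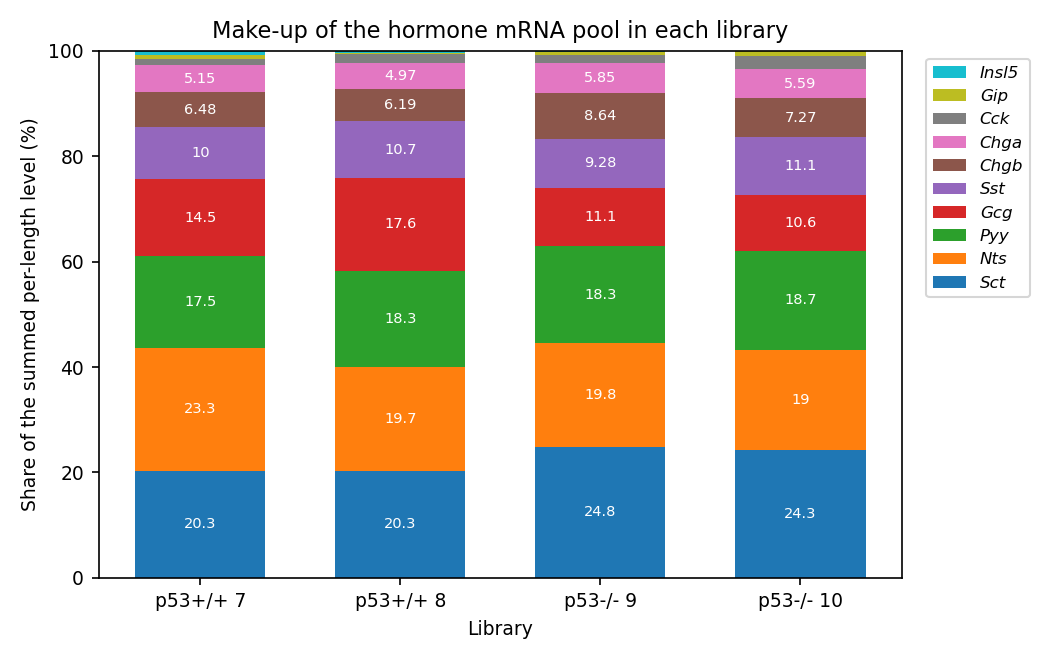
Share of each gene (stacked colours, in percent) in the summed per-length level of the 10 hormone genes, 1 bar per library. The Gcg segment is narrower, and the Sct segment wider, in both p53-/- bars.

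Set against the granins, Gcg had 68.0 and 85.9 counts per 100 counts of Chga and Chgb together in p53+/+ mice, against 41.8 and 44.8 in p53-/- mice. Nts had 91.1 and 80.3 against 62.0 and 67.3. Both genes thus lay lower without overlap on this scale, Nts only here and not in CPM. Sct had 41.0 and 42.7 against 40.3 and 44.4, and overlapped. Pyy had 34.6 and 37.7 against 29.1 and 33.4, and Insl5 had 1.44 and 0.891 against 0.11 and 0.085, both lower in the p53-/- libraries. Pyy overlapped in CPM, and its share of the hormone pool lay higher in the p53-/- libraries, so its direction depended on the scale. Sst overlapped, at 22.6 and 25.1 against 16.8 and 22.7. This scale was added after the data had been seen.

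Within genotypes, the p53+/+ libraries differed by a larger ratio than the p53-/- libraries in 9 of the 10 genes, Cck being the exception. Library 7 exceeded library 8 in all 10 genes, from 1.05-fold for Cck and 1.26-fold for Gcg to 1.80-fold for Nts and 14.3-fold for Gip. The p53-/- libraries differed by 1.05-fold for Gcg and 1.81-fold for Gip at the ends of their range. The summed level of the 10 genes was 549 CPM in library 7 and between 353 and 379 CPM in the other 3, the p53+/+ library 8 included. Epithelial markers such as Krt8 and Epcam were also highest in library 7, with sums of 32751.7 and 24275.1 CPM in libraries 7 and 8 and 21955.2 and 18547.6 CPM in the p53-/- libraries, and their part in the hormone values was not tested. When libraries were scaled to these epithelial markers instead, the median log2 fold change of the 10 members was 0.33 and that of all genes tested 0.46.

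Among the other secretory lineages, the median log2 fold change was 0.614 for Paneth cell, -0.223 for goblet cell and -0.104 for tuft cell markers, beside -0.19 for the hormone genes. The summed Paneth cell markers, such as Lyz1 and the defensin Defa24, were at 13206.5 and 9006.3 CPM against 15776.9 and 17699.6 CPM, with 6 of 7 genes higher without overlap. The goblet cell markers summed to 18963.7 and 16201.1 CPM against 14299.0 and 12223.1 CPM, with 4 of 9 lower and 1 higher without overlap. Tuft cell markers summed to 87.1 and 119 CPM against 89.9 and 94.5 CPM, with 3 of 9 tested higher and 3 lower without overlap. Over all genes tested, 26.4% lay higher and 24.4% lower without overlap. None of the genes in these 3 lists passed the threshold, and the difference between lineages was not tested. Defining genes of neighbouring organs that hold some of the same hormones were at or near 0. The islet genes Ins1 and Ins2 and the trypsinogen Prss2 were at 0 in all 4 libraries, as were the stomach genes Gkn1, Gkn2, Tff1 and Muc5ac. A count of 0 in a library allows up to 3 counts. Of the 11 pancreas genes, Cela1, which the intestine also expresses, was the most abundant, at 7.61 and 4.87 CPM against 6.75 and 8.70 CPM.

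**Figure D3:**
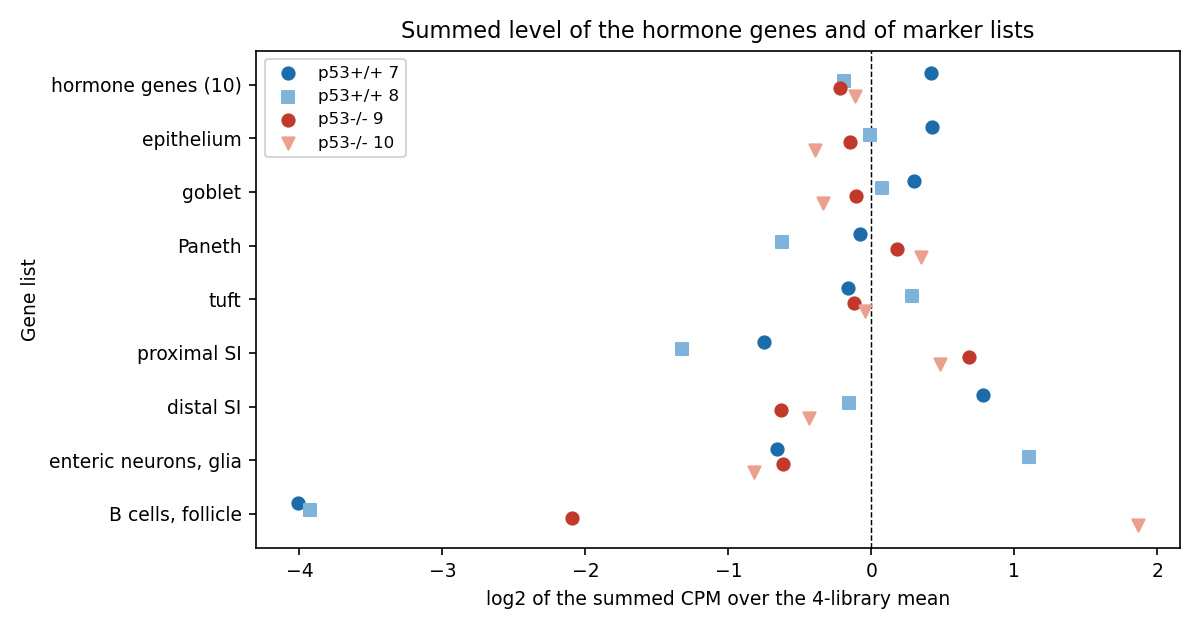
Summed CPM of the 10 hormone genes and of 8 marker lists in each library, as log2 over the mean of the 4 libraries. Library 7 is the high one for the hormone genes, library 8 for enteric neurons and glia, and library 10 for B cells and follicles.

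The wider enteroendocrine pathway was read from 7 lists of 88 genes, of which 72 were tested. Of these, 1 passed the threshold higher (Tac1) and 0 lower, beside 0.298% and 0.193% of all genes tested. At an unadjusted p under 0.05, 1 was higher and 4 were lower, beside 10% and 7.92% of all genes tested. Neither of these unadjusted shares exceeded that background. Without overlap between the genotypes, 16 of the 72 were higher and 14 lower, beside the 26.4% and 24.4% of all genes given above, so neither share exceeded the background.

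Tac1 (ENSMUSG00000061762) encodes the precursor of substance P and neurokinin A, made by enterochromaffin cells and by enteric neurons. It was at 8.79 and 11.2 CPM in p53+/+ mice against 46.1 and 39.1 CPM in p53-/- mice. Both p53-/- libraries stood far above both p53+/+ libraries, with means of 9.97 ± 1.68 CPM (SD, n = 2) and 42.6 ± 4.96 CPM (SD, n = 2). It rose 4.27-fold (log2 fold change 2.09, standard error 0.225), and in the edgeR fit its adjusted p was 0.0433. The call was lost without library 9 (adjusted p = 0.109) and without library 10 (0.306), and the log2 fold change stayed between 1.94 and 2.53 in all 14 alternatives, of which 8 kept the call. Markers of enteric neurons and glia, which could also carry Tac1, summed to 49.6 and 169 CPM against 51.1 and 44.5 CPM, and of 14 tested 13 had a negative sign. Uchl1 was at 3.77 and 22.8 CPM against 5.17 and 5.27 CPM, and Vip, the 1 with a positive sign, at 1.67 and 8.95 CPM against 4.87 and 7.01 CPM. The part of neurons in the Tac1 value was not tested. The 4 tested upper SI markers given above lay higher in the same libraries as Tac1, and their part in its value was not tested.

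The other peptide genes of the list were low. Ghrl, the hunger hormone ghrelin, had 15 and 4 counts against 16 and 36 counts, and Iapp, which encodes amylin, had 19 and 9 counts against 27 and 43 counts. Like Gip, both were lowest in library 8, and neither passed the threshold (adjusted p = 0.592 and 0.534). Ppy, Ucn3 and Gast had at most 5 counts in any library and were not tested.

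The serotonin genes of enterochromaffin cells, the cells that also make Tac1 peptides, held no gene past the threshold. Tph1, the rate-limiting enzyme of serotonin synthesis in the gut, was at 9.04 and 6.10 CPM in p53+/+ mice against 5.87 and 3.13 CPM in p53-/- mice (log2 fold change -0.75, adjusted p = 0.478). Ddc, the enzyme of the next step, was at 55.4 and 55.2 CPM against 36.6 and 50.6 CPM. Both lay lower without overlap, with little room between library 8 and library 9 for Tph1. Slc18a1, which loads serotonin into vesicles, overlapped at 11.2 and 10.6 CPM against 13.2 and 10.4 CPM. Over the 6 genes of the list the median log2 fold change was -0.115.

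Of the transcription factors that build the lineage, 18 of 19 were tested and 0 passed the threshold. The sign was positive in 13 and negative in 5, with a median log2 fold change of 0.349. Without overlap, 8 of the 18 were higher and 1 lower, beside 26.4% and 24.4% of all genes tested. The list was not tested as a set. Neurog3, the factor that commits a progenitor to the lineage, had 8 and 6 counts in p53+/+ mice against 24 in each p53-/- library. This is 0.495 and 0.389 CPM against 1.05 and 1.19 CPM, a separation that rests on few counts (log2 fold change 1.33, adjusted p = 0.321). Insm1, a repressor needed for endocrine differentiation, was at 3.90 and 3.05 CPM against 4.91 and 5.47 CPM (adjusted p = 0.515). Neurod1, which acts after Neurog3, was at 2.48 and 1.69 CPM against 2.98 and 2.74 CPM. Foxa1 and Sox4, which other epithelial cells express too, were the most abundant of the list, Foxa1 at 48.6 and 40.5 CPM against 60.2 and 40.9 CPM and Sox4 at 30.0 and 29.3 CPM against 41.0 and 31.3 CPM. Mnx1 was the 1 that lay lower, at 3.09 and 2.60 CPM against 2.41 and 1.69 CPM.

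**Figure D4:**
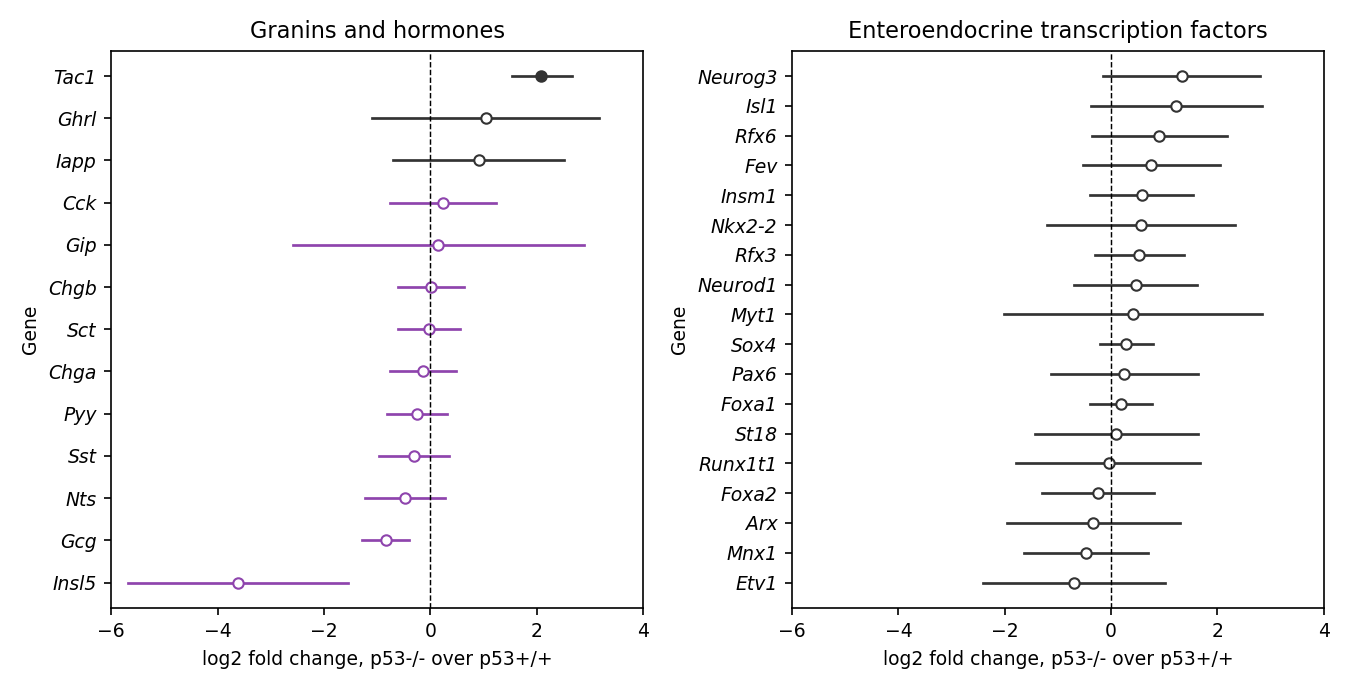
Log2 fold change, p53-/- over p53+/+, with its 95% confidence interval, for the granins and hormones (left, the 10 members in purple and the other tested peptide genes in black) and for the transcription factors (right). A filled point is past the threshold, which is so for Tac1 alone among the genes plotted.

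Among the prohormone processing genes, Pcsk1, the convertase that cuts proglucagon into GLP-1, was at 15.3 and 20.6 CPM in p53+/+ mice against 25.6 and 23.7 CPM in p53-/- mice, higher without overlap (adjusted p = 0.39). Its inhibitor gene Pcsk1n was at 10.5 and 26.0 CPM against 6.36 and 6.27 CPM (log2 fold change -1.53, adjusted p = 0.196). Cpe, which trims the cut peptides, was at 41.0 and 138 CPM against 50.0 and 35.3 CPM. Library 8 was the high one for Cpe and Pcsk1n, and it was also the library with the high enteric neuron and glia markers, whose part in these values was not tested. Of the 7 genes of the list, 6 had a negative sign and 0 passed the threshold.

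The granule and release genes had 0 of 19 tested genes past the threshold. Syt7, a calcium sensor of secretion, was at 98.6 and 54.0 CPM in p53+/+ mice against 38.2 and 31.4 CPM in p53-/- mice (log2 fold change -1.13, adjusted p = 0.167). Scg2, secretogranin 2, was at 19.4 and 31.5 CPM against 12.9 and 12.0 CPM (log2 fold change -1.03, adjusted p = 0.177). Both lay lower without overlap, as did 6 of the 19 in all, while 2 lay higher. Over all genes tested, 24.4% lay lower and 26.4% higher in this way. Scg2 was highest in library 8 and Syt7 in library 7.

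The nutrient sensors had 0 of 7 tested genes past the threshold. Without overlap, 3 were higher and 0 lower, beside 26.4% and 24.4% of all genes tested. Ffar4, the long-chain fatty acid receptor, was at 20.3 and 12.2 CPM in p53+/+ mice against 24.8 and 23.8 CPM in p53-/- mice (adjusted p = 0.387). Ffar2, a receptor for short-chain fatty acids, was at 6.25 and 2.98 CPM against 6.84 and 7.36 CPM. For both, library 8 was the low one and library 7 stood close under the p53-/- values.

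Among receptors and peptidases that act on the hormones, 12 of 20 were tested and 0 passed the threshold. Of the 12, 4 lay lower without overlap (Mme, Sstr1, Sstr3 and Sstr5) and 0 higher, beside 24.4% and 26.4% of all genes tested. Which genes were tested depended on the filter on low counts. Sstr1, Sstr3 and Sstr5 had enough counts in both p53+/+ libraries, and 4, 0 and 5 counts in library 10. Of the genes not tested, Gipr lay higher without overlap (3 and 4 counts against 15 and 10), and Sstr2 and Npy1r lay lower. Mme, which encodes the peptidase neprilysin, was at 191 and 212 CPM against 181 and 151 CPM (adjusted p = 0.509). Dpp4, the peptidase that inactivates GLP-1 and GIP, was at 761 and 863 CPM in p53+/+ mice against 771 and 623 CPM in p53-/- mice, and overlapped. Glp2r, the receptor of GLP-2, was at 4.39 and 13.1 CPM against 8.15 and 5.97 CPM, and Glp1r at 0.99 and 2.40 CPM against 1.97 and 1.64 CPM. Both overlapped between the genotypes, with library 8 high. Cckbr and Ntsr2 were at 0 in all 4 libraries.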

How the data were processed

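RNA-seq was performed on SI tissue of 2 p53+/+ and 2 p53-/- mice. The values the authors deposited are unscaled counts of reads assigned to genes, and these were used without change. The submitters' processing notes name fastp, HISAT2 2.0.5, featureCounts 1.5.0-p3 and DESeq2 1.20.0 without roles. The genome build and the strand setting of the counts are not given in the sources used here, so antisense reads cannot be separated. None of the 10 members overlaps another gene in GENCODE M21, whose exon lengths gave the per-length levels. The column names give the genotype and a library number, which were matched to the genotype labels only.

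Genes were filtered with filterByExpr, scaled by TMM and tested with the quasi-likelihood test of edgeR 4.0.16 (R 4.3.3), with Benjamini-Hochberg adjustment over 16094 genes and a threshold of 0.05. The p-values rest on the spread between these mice, with that of each gene drawn toward the other genes (prior degrees of freedom 3.454). They do not reach beyond these mice. The steps were tested on simulated data, in which the changes were larger than those of every member but Insl5. That run does not bear on finding changes of the size seen in the other members. Alternatives were DESeq2 1.42.0, a likelihood ratio test, other scalings and filters, leaving out 700 immunoglobulin and T cell receptor segments, and leaving out each library. The members and gene lists were chosen with earlier results of these data known. Named were the 10 members, Trp53, genes past the threshold, up to 6 genes per list with the highest mean level, and markers at or near 0. Neurog3, Neurod1, Mnx1, Cckbr, Ntsr2, Sstr1, Sstr2, Sstr3, Gipr, Npy1r and Rn18s-rs5 fell outside this rule and were named after their values were seen. Promoters were taken from RefSeq, GRCm38.p6. One gene of the colon list is not reported here.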

Additional observations from a re-analysis of the deposited data

How the results depend on the processing

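The count of hormone genes lower in p53-/- mice, 0 with edgeR's quasi-likelihood test, was 1 with DESeq2, 2 with the likelihood ratio test, 2 without a filter and 0 to 1 when each library was left out (1 without library 8), and the count higher was 0 in each of these. The count of pathway genes higher fell from 1 to 0 with library size only, upper-quartile factors, scaling by the granins (added after seeing the data) and at least 10 counts in every library, and was 0 to 1 when each library was left out (0 without library 9 or 10). The count lower rose from 0 to 2 with DESeq2, 1 with the likelihood ratio test, 5 without a filter and 0 to 6 when each library was left out (6 without library 7, 1 without library 8). The members' median of -0.19 was 0.33 under epithelial scaling and -0.53 to 0.15 when each library was left out. Trp53 passed the threshold with DESeq2 (-1.32), the likelihood ratio test (-1.31), without a filter (-1.26), and without library 7 (-1.15) or 8 (-1.45). Epithelial scaling turned the log2 fold change of Chga (0.39), Sct (0.49), Sst (0.22), Nts (0.059) and Pyy (0.27), and moved Gcg to -0.34. Sct, near 0, also turned with library size only (0.052), upper-quartile factors (0.031), granin scaling (0.017), no filter (0.019) and at least 10 counts (0.051). When each library was left out, Chga ran from -0.43 to 0.24, Chgb from -0.29 to 0.40, Cck from -0.17 to 0.59, Gip from -0.75 to 3.05, Sct from -0.31 to 0.31, Nts from -0.85 to 0.016, Pyy from -0.50 to 0.056, and Insl5 from -4.15 to -2.79. The 6 members with shares that did not overlap became 7 to 10 when each library was left out (10 without library 9). There 1 library is set against 2, so fewer values have to separate. The causes of the other shifts were not tested. Over all genes, 48 were higher and 31 lower with the quasi-likelihood test, 796 and 647 with DESeq2, 833 and 462 with the likelihood ratio test, 1433 and 761 without a filter, 325 and 319 without library 7, 680 and 344 without library 8, 77 and 9 without library 9, and 0 and 0 without library 10 (1201 at an unadjusted p under 0.05). They were 26 and 20 with library size only, 29 and 20 with upper-quartile factors, 112 and 14 under epithelial scaling, and 24 and 18 at 10 counts. Gip and Insl5 have no value at 10 counts. Where a library was left out, the lone library of its genotype was assumed to vary like the other genotype. With 2 libraries per genotype, small changes were not detectable. No paired analysis was possible because the columns carry no replicate number that could be matched to the labels.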
